A study of Homo sapiens with 16 samples.

Results

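The genes described here are 10 enzymes that make serine or carry its one-carbon unit on folate, namely PHGDH, PSAT1, PSPH, SHMT1, SHMT2, MTHFD1, MTHFD2, MTHFD1L, MTHFD2L and ALDH1L2. They were chosen by name among the 60719 genes of the count tables, with earlier results of these data known. The naming rule itself uses no measured value, but the choice was not blind to the data. RNA was sequenced from the human line MDA-MB-231, derived from a triple-negative breast cancer, in 16 libraries of 6 groups. Untreated cells were either parental 231, with an unedited TXNIP gene, or 231:TKO, in which TXNIP was knocked out with CRISPR/Cas9, with 2 replicates of each. Both populations were also given siNT, a non-targeting siRNA, or siMyc, an siRNA against MYC, for 48 hours, with 3 replicates each of parental 231+siNT, parental 231+siMyc, 231:TKO+siNT and 231:TKO+siMyc. The knockout cells came from colonies grown out of single cells, so that 231:TKO and parental 231 can also differ in ways that do not follow from TXNIP. All cells grew in DMEM with serum and non-essential amino acids, a medium that supplies serine and glycine. Replicates are separate samples of a group, and the p-values measure the spread between them.

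Serine is built from the glycolytic intermediate 3-phosphoglycerate in a chain of reactions run by PHGDH, PSAT1 and PSPH. SHMT1 in the cytosol and SHMT2 in mitochondria then split serine into glycine and a one-carbon unit bound to tetrahydrofolate. In mitochondria MTHFD2 or MTHFD2L oxidizes that unit, and MTHFD1L releases it as formate or ALDH1L2 as carbon dioxide. The cytosolic enzyme MTHFD1 puts formate back on folate for the synthesis of purines, thymidylate and methionine. Myc and the stress-activated factor ATF4 are both known regulators of genes of this route, and MDA-MB-231 is known as a breast cancer line with little PHGDH.

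Promoters are shown for the members with the clearest changes after siMyc, because Myc with its partner Max binds the E-box CACGTG and because ATF4 with a C/EBP partner binds TGATGNAA. RefSeq promoter windows of 300 bases, running from 250 bases before to 50 after an annotated start on GRCh38.p14, were found for 7 of the 10 members. Both strands were searched, and the matches stand in capitals.
MTHFD1L, chr6:150866236-150866535, plus strand: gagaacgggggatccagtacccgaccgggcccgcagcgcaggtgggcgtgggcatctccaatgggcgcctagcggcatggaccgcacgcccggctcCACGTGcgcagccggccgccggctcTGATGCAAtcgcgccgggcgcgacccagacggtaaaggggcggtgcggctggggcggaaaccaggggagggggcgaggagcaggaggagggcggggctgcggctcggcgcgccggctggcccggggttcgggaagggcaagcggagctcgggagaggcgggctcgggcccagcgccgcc
MTHFD1, chr14:64388103-64388402, plus strand: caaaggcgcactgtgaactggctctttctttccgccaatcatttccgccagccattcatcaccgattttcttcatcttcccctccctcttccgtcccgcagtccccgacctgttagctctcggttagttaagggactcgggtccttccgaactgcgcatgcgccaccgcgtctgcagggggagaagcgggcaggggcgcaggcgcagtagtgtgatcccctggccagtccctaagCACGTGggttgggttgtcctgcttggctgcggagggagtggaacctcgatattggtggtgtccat
PSAT1, chr9:78296875-78297174, plus strand: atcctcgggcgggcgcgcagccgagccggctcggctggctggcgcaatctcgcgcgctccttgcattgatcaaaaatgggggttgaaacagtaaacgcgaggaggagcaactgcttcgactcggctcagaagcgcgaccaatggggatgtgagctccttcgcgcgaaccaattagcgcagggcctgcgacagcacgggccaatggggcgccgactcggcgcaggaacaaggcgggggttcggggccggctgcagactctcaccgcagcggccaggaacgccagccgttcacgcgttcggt
MTHFD2, chr2:74198365-74198664, plus strand: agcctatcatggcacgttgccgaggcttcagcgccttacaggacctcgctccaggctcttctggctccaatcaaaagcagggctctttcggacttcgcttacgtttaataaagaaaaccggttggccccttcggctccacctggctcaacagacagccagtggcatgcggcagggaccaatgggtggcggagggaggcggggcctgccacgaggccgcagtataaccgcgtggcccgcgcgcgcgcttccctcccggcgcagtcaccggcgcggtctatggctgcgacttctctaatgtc

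The MTHFD1L window held an E-box that begins 154 bases before this start, and a TGATGNAA match 129 bases before it on the same strand. The matches do not overlap, and they lie in 3 overlapping windows of the same gene, whereas its remaining window, about an alternative start, held neither motif. MTHFD1 had an E-box 15 bases before its start and no TGATGNAA. Neither motif was found in the windows of PHGDH, PSAT1, SHMT1, MTHFD2 and MTHFD2L. Of all 35116 RefSeq windows of this length, 7.26% held CACGTG and 3.62% held TGATGNAA. A match is a run of letters and not evidence that a factor sits there.

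Total counts lay between 18953668 and 59799444 per library, and 3 counts, taken as the smallest signal, correspond to 0.0502 to 0.158 CPM, the counts scaled to library size. Per the file headers, counting used single reads for untreated cells and read pairs after siRNA, and a later gene annotation for siRNA-treated parental 231 than for all others. The exon lengths of all 10 members are the same in both annotations. TXNIP lay between 290 and 459 CPM in the 8 parental libraries and between 6.56 and 46.6 CPM in the 8 231:TKO libraries, the highest of them in untreated 231:TKO replicate 2. MYC was 2.31-fold lower with siMyc in 231:TKO and 1.95-fold lower in parental 231. The mesenchymal genes VIM, CD44, AXL and CAV1 lay between 566 and 3088 CPM everywhere, ESR1 and PGR were at 0 to 12 counts and ERBB2 at 74.3 to 107 CPM. Among markers of other cells, the epithelial CDH1 lay at 4.24 to 9.31 CPM in parental 231 and 0.272 to 1.07 in 231:TKO, and the leukocyte gene PTPRC at 0.575 to 1.51 and 0 to 0.140 CPM. Parental 231+siNT replicate 1 and parental 231+siMyc replicate 3 deviated from their groups together, with a correlation of 0.90 between their deviations over genes above 1 CPM. Results that rest on them are given with and without them.

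Per kilobase of exon, SHMT2 and PSAT1 were the most abundant members in every group and PHGDH and ALDH1L2 the scarcest. The length used is that of all annotated exons of a gene and not of 1 transcript. It runs from 2206 bases for PSAT1 to 12208 for MTHFD1, so that the order depends on it. By CPM without length, MTHFD1 was the highest member in parental 231, 231:TKO and 231:TKO+siNT. PSAT1 stood at 48.3 ± 1.03 CPM per kb in parental 231 (SD, n = 2) and SHMT2 at 30.3 ± 0.86. In parental 231+siNT the order was turned, with SHMT2 at 43.2 ± 1.197 (SD, n = 3) and PSAT1 at 36.3 ± 1.98. In 231:TKO+siNT, PSAT1 was at 45.4 ± 6.25 and SHMT2 at 37.8 ± 4.44. Within each library PSAT1 was the higher, at 39.7 beside 34.1, 52.1 beside 42.7 and 44.4 beside 36.5, and this order was not tested. MTHFD1 followed at 10.7 to 22.2 CPM per kb over the group means, then PSPH at 11.04 to 14.05 and MTHFD1L at 5.59 to 16.6, and these neighbours changed places between groups. SHMT1 at 5.49 to 8.85 and MTHFD2 at 3.47 to 9.12 CPM per kb overlapped the lower end of MTHFD1L, and MTHFD2L stayed below them at 1.04 to 1.82. Levels of untreated and siRNA-treated libraries were scaled separately, so that no test was made across them.

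**Figure D1:**
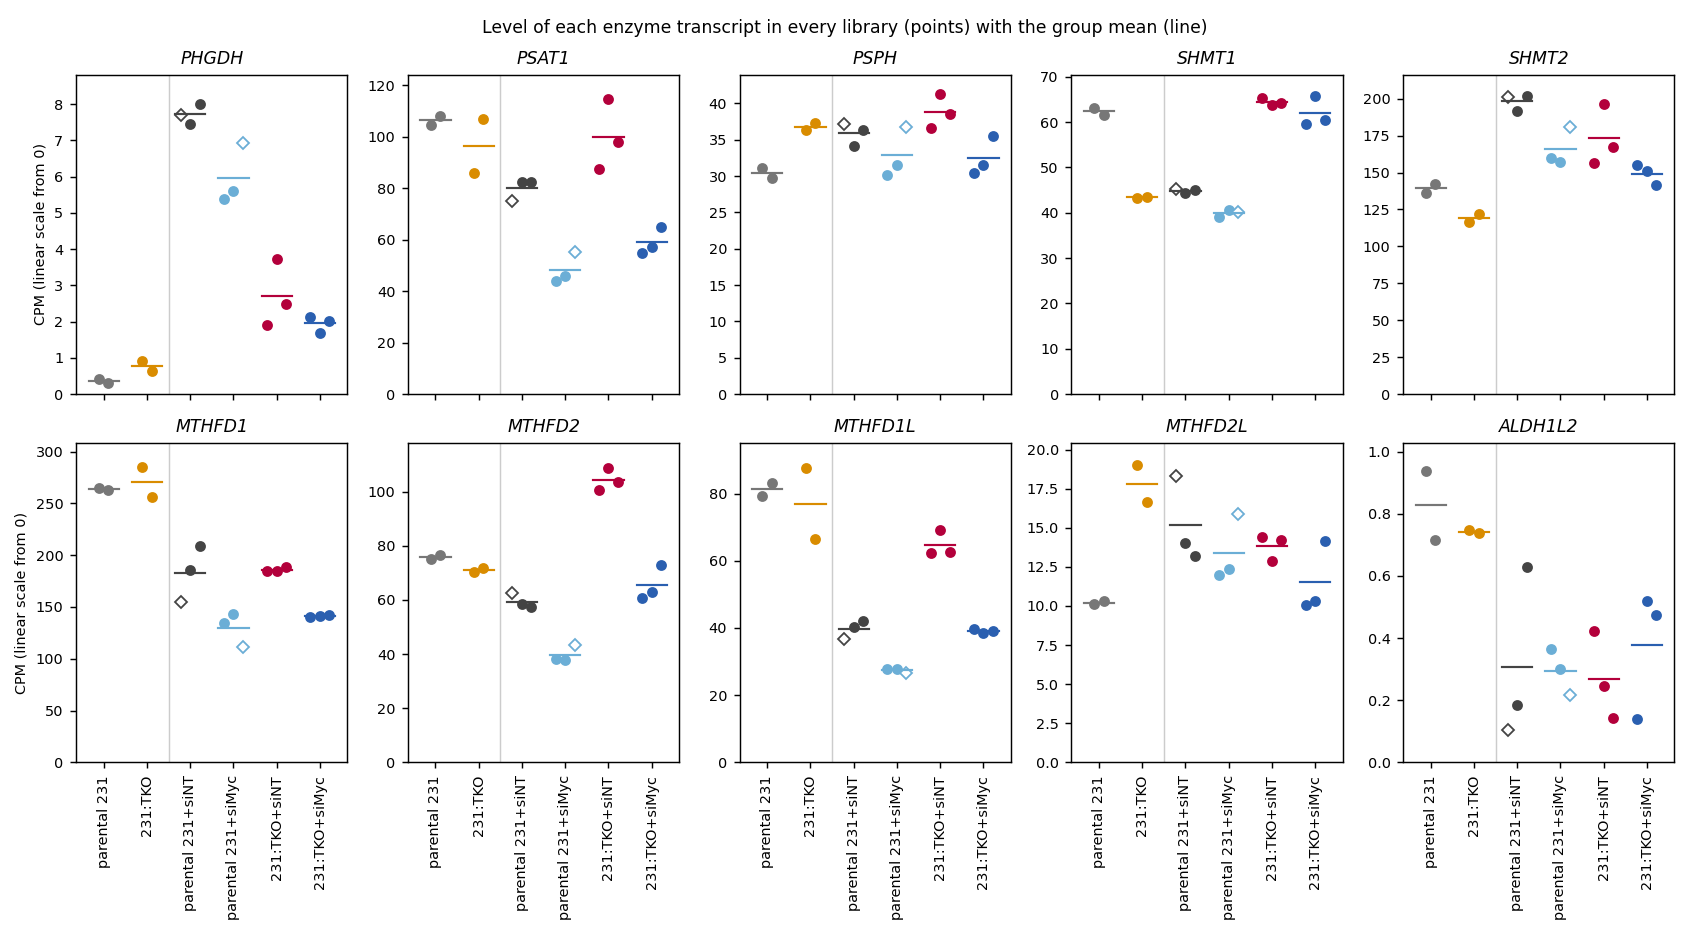
CPM of each of the 10 transcripts (vertical axis, linear from 0, a separate scale for each gene) in the 6 groups, with 1 point per library and a line at the group mean; white diamonds are the 2 parental libraries that deviated together. MTHFD2 is at 101 to 109 CPM in 231:TKO+siNT and at 38.0 to 43.2 in parental 231+siMyc, and ALDH1L2 stays below 1 CPM throughout.

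The transcript of the first enzyme of serine synthesis was scarce in the libraries of untreated cells. PHGDH had 8 and 6 counts in parental 231, or 0.417 and 0.307 CPM, with exact 95% binomial intervals of 0.182 to 0.832 and 0.114 to 0.678 CPM that cover counting error only. In 231:TKO it had 27 and 18 counts, or 0.917 and 0.632 CPM. The siRNA-treated libraries had more, at 7.69, 7.46 and 8.01 CPM in parental 231+siNT and 1.91, 3.73 and 2.49 CPM in 231:TKO+siNT. Treatment cannot be told apart here from read layout, series of sample names and, in parental 231, annotation, and no test was made. PSAT1, the next enzyme of the chain, was far above it in every library, at 33.3 to 1467 times the level of PHGDH per kilobase. ALDH1L2, the formyltetrahydrofolate dehydrogenase of mitochondria, had 5 to 30 counts in every library, and no difference in it was detectable at this depth.

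Knockdown of Myc lowered most of the route in 231:TKO cells, and the question this comparison addresses is which genes depend on Myc when TXNIP is lost. All 10 members passed the filter of more than 5 counts summed over the libraries. Of these, 7 were lower in 231:TKO+siMyc than in 231:TKO+siNT and none was higher, against 13.9% and 13.3% of the 22450 genes tested (edgeR's quasi-likelihood test, adjusted p of at most 0.05). Among genes above 1 CPM the background was 22.2% lower and 20.9% higher. The median log2 fold change of the members was −0.36, beside 0.00695 for all genes. PSAT1, MTHFD1L and MTHFD2 moved most, each by more than a log2 fold change of −0.69 and with no overlap between the groups.

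PSAT1 makes phosphoserine with glutamate as the amino donor. It lay at 87.5, 115 and 98.02 CPM in 231:TKO+siNT and at 55.0, 57.4 and 65.1 CPM in 231:TKO+siMyc. Every siMyc library was below every siNT library, and the log2 fold change was −0.79 (SE 0.08, adjusted p = 1.18e-07). PSPH, which removes the phosphate in the last step, lay at 36.6, 41.3 and 38.5 CPM with siNT and at 30.4, 31.5 and 35.5 with siMyc. Its log2 fold change of −0.28 (SE 0.07, adjusted p = 0.00289) was smaller than that of PSAT1. Reads of PSPH may be shared with its pseudogene PSPHP1. That pseudogene held 332 to 401 counts in these libraries and had a log2 fold change of −0.03 (SE 0.08, adjusted p = 0.871). PHGDH, at 2.14, 1.69 and 2.02 CPM with siMyc, overlapped its siNT group, and its value was −0.49 (SE 0.19, adjusted p = 0.0678). It passed in 3 of 12 alternative fits.

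Of the serine hydroxymethyltransferases, the mitochondrial enzyme passed the test. SHMT2 lay at 157, 196 and 167 CPM with siNT and at 155, 151 and 142 with siMyc, a log2 fold change of −0.24 (SE 0.06, adjusted p = 0.00659). The cytosolic SHMT1 was at 65.4, 63.8 and 64.1 CPM with siNT and at 59.5, 65.8 and 60.5 with siMyc, and its value of −0.09 (SE 0.06, adjusted p = 0.305) did not pass.

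Among the enzymes that carry the one-carbon unit onward, MTHFD1L and MTHFD2 changed most. MTHFD1L, the mitochondrial formate-releasing synthetase, lay at 62.2, 69.0 and 62.5 CPM with siNT and at 39.8, 38.6 and 39.2 with siMyc. The groups stood well apart, and its log2 fold change was −0.75 (SE 0.06, adjusted p = 5.95e-09). MTHFD2, the mitochondrial dehydrogenase typical of proliferating and embryonic cells, lay at 101, 109 and 103.6 CPM and at 60.7, 63.0 and 72.9. It fell by 0.70 on the log2 scale (SE 0.06, adjusted p = 3.04e-08). Its relative MTHFD2L, which is known from adult tissues, fell by 0.29 (SE 0.10, adjusted p = 0.0444) with overlapping groups, since siMyc replicate 3 at 14.2 CPM lay within the siNT range of 12.9 to 14.4. The cytosolic MTHFD1 lay at 185, 185 and 189 CPM with siNT and at 141, 141 and 142 with siMyc, a log2 fold change of −0.42 (SE 0.05, adjusted p = 5.21e-07). ALDH1L2 had a value of 0.46 (SE 0.46, adjusted p = 0.536). In 1 fit of all 12 siRNA libraries PSAT1, MTHFD1, MTHFD2 and MTHFD1L stayed past the threshold, while PSPH, SHMT2 and MTHFD2L did not, with adjusted p of 0.120, 0.170 and 0.363. MTHFD2L lost its call in 4 of the 6 fits with 1 library left out, those without siNT replicate 1 or 3 or siMyc replicate 1 or 2 (adjusted p = 0.147 to 0.222), and with more than 5 counts in every library (0.0518). SHMT2 also missed the threshold without 231:TKO+siNT replicate 2 (−0.15, adjusted p = 0.0633) or 231:TKO+siMyc replicate 3 (−0.21, adjusted p = 0.100). In cell populations like these, a lower level in each cell and fewer cells with the transcript cannot be told apart.

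In parental 231 the same transcripts lay lower with siMyc, but only PSAT1 passed the test on all 6 libraries. It was at 74.9, 82.4 and 82.6 CPM in parental 231+siNT and at 44.2, 45.8 and 55.4 in parental 231+siMyc, a log2 fold change of −0.72 (SE 0.11, adjusted p = 0.0490). That made 1 member lower and none higher, against 0.354% and 0.240% of the 23728 genes tested. The median over the members was −0.31, beside −0.00158 for all genes. The call of PSAT1 was lost without any 1 of siNT replicates 2 and 3 or siMyc replicates 1 and 2. In those fits 0 genes passed in either direction, members or others. MTHFD2 lay at 62.4, 58.3 and 57.4 CPM with siNT and at 38.1, 38.0 and 43.2 with siMyc, without overlap, and its value of −0.58 (SE 0.10, adjusted p = 0.0536) missed the threshold. MTHFD1L, at 36.6, 40.2 and 42.0 CPM and at 27.7, 27.9 and 26.5, had −0.53 (SE 0.10, adjusted p = 0.0586). MTHFD1 lay at 155, 186 and 209 CPM with siNT and at 135, 144 and 112 with siMyc, and the lowest library of each group was a member of the pair that deviated together. Its value was −0.49 (SE 0.14, adjusted p = 0.156). PHGDH had −0.37 (adjusted p = 0.236), SHMT2 −0.26 (0.262), SHMT1 −0.17 (0.446), MTHFD2L −0.18 (0.701), PSPH −0.13 (0.675) and ALDH1L2 −0.05 (0.980) by the same test.

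These calls turned on parental 231+siNT replicate 1 and parental 231+siMyc replicate 3. With both left out, 8 members were lower with siMyc and none was higher, against 10.9% and 9.94% of genes. PSAT1 then had a log2 fold change of −0.88 (adjusted p = 5.62e-07), MTHFD2 −0.61 (5.34e-06), MTHFD1L −0.57 (1.69e-05), MTHFD1 −0.50 (4.13e-05), PHGDH −0.50 (0.00481), SHMT2 −0.31 (0.000311), PSPH −0.20 (0.0379) and SHMT1 −0.17 (0.0454). With both kept and given a common factor in the fit, 8 members were again lower and none higher, against 13.1% and 13.7% of genes. PSPH had an adjusted p of 0.0603 in that fit and MTHFD2L one of 0.0467. Both fits were chosen after the data had been seen.

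No member was shown to respond differently to siMyc in the 2 populations. In 1 fit of the 12 siRNA libraries, the response in 231:TKO minus that in parental 231 was past the threshold for none of the 10 members and for 0 of 25812 genes in either direction (edgeR), a background of 0%. At an unadjusted p under 0.05 it held 1039 genes and 0 members, and DESeq2 called 0 genes higher and 6 lower. MTHFD1L had a difference of −0.19 (SE 0.12), and PSAT1 had −0.04 (SE 0.16), MTHFD2 −0.09 (SE 0.13) and MTHFD1 0.10 (SE 0.15). PHGDH, with few counts in 231:TKO, had −0.10 (SE 0.26). With the pair of parental libraries left out or given a factor, none of the members passed either. The genes past the threshold were then 0.0999% higher and 0.152% lower with the pair left out, and 0.395% and 0.174% with the factor. The siRNA-treated populations were counted on different annotations and carry different series of sample names in the headers, but each response was measured within 1 series.

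**Figure D2:**
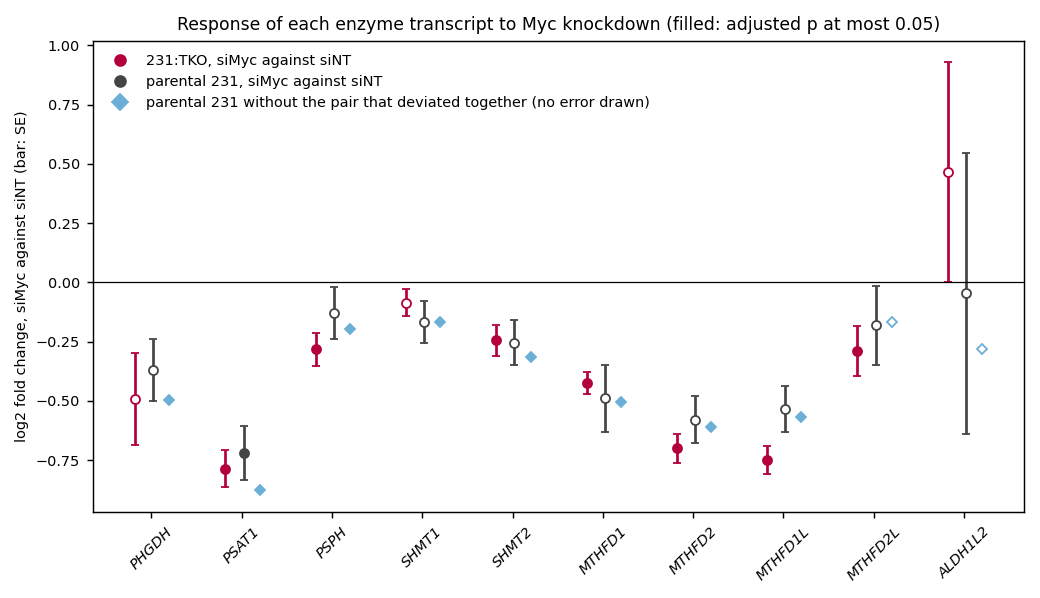
Log2 fold change of each transcript with siMyc against siNT (vertical axis) in 231:TKO (red) and parental 231 (black), with bars of 1 SE, and in parental 231 without the pair of libraries that deviated together (blue diamonds, no error drawn); filled symbols have an adjusted p of at most 0.05. Values of both populations lie close for PSAT1 (−0.79 and −0.72) and SHMT2 (−0.24 and −0.26), and those of MTHFD1L are −0.75 and −0.53.

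Other genes of folate and serine metabolism, and known targets of ATF4, were taken from 8 lists of 46 genes. In 231:TKO+siMyc against 231:TKO+siNT, 7 of the 44 tested were higher and 13 lower, against 13.3% and 13.9% of all genes. All 3 enzymes on the nucleotide list, TYMS, GART and ATIC, were lower, with a log2 fold change of −0.63 (SE 0.05) for GART, which uses formyl folate in purine synthesis. In the methionine cycle, 3 of 6 tested were lower and none higher, led by AHCY at −0.85 (SE 0.05) and MTRR at −0.74 (SE 0.06). Of the folate uptake genes 1 was higher and 2 were lower, and the folate receptor FOLR1 rose by 0.96 (SE 0.12). ALDH1L1, the cytosolic counterpart of ALDH1L2, rose by 0.73 (SE 0.10). Of the 8 genes on the list of ATF4 targets, 1 was lower and none higher. The ATF4 transcript itself fell by 0.22 (SE 0.06, adjusted p = 0.0119). In parental 231 with all libraries, AHCY alone among the 44 passed, at −0.61 (SE 0.10, adjusted p = 0.0474). Without the pair that deviated together 9 of the 44 were higher and 17 lower, against 9.94% and 10.9% of all genes, and AHCY had −0.63 (SE 0.05, adjusted p = 1.83e-06). With the factor 12 were higher and 16 lower, against 13.7% and 13.1%.

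Between untreated 231:TKO and parental 231, 2 of the members passed the test, 1 in each direction. Of the 10 tested, MTHFD2L was higher and SHMT1 lower in 231:TKO than in parental 231, against 5.43% and 4.18% of the 19965 genes tested. Among genes above 1 CPM these shares were 8.32% and 5.45%. The median of the members was −0.09, beside 0.00478 for all genes. MTHFD2L lay at 10.1 and 10.3 CPM in parental 231 and at 19.0 and 16.6 in 231:TKO, a log2 fold change of 0.80 (SE 0.12, adjusted p = 0.0235). SHMT1 lay at 63.2 and 61.7 CPM and at 43.3 and 43.5, a log2 fold change of −0.52 (SE 0.07, adjusted p = 0.0164). Neither gene's groups overlapped. PHGDH, at the counts given above, had 1.09 (SE 0.41, adjusted p = 0.180), PSPH 0.27 (SE 0.08, adjusted p = 0.108) and SHMT2 −0.22 (SE 0.06, adjusted p = 0.0935). PSAT1, MTHFD1, MTHFD2, MTHFD1L and ALDH1L2 had values between −0.15 and 0.04. With 1 library left out a group held 1, so that only effect sizes are given here. The log2 fold change was then 0.69 to 0.89 for MTHFD2L and −0.54 to −0.51 for SHMT1. With the replicate number as a block in the edgeR fit, neither passed (adjusted p = 0.0594 and 0.0502). The CDH1 and PTPRC levels given above moved with this comparison, at log2 fold changes of −3.85 and −3.79, and their part in it was not tested.

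The median of the genes around each of these members had the same sign as the member. SHMT1 lies on chromosome 17 at 18327860 to 18363563 (GRCh38), and in the window of 20 Mb that holds it the median difference of 213 other genes above 1 CPM was −0.31 in 231:TKO replicate 1 and −0.35 in replicate 2, beside −0.52 and −0.51 for SHMT1. MTHFD2L lies on chromosome 4 at 74114174 to 74303099, and 41 other genes of its window had medians of 0.39 and 0.44, beside 0.87 and 0.68 for MTHFD2L. When each library was corrected for the median of its windows, SHMT1 had −0.19 (adjusted p = 0.137) and MTHFD2L 0.38 (adjusted p = 0.131). Such shifts were found in many places, with 30 and 28 of 153 windows beyond 0.25 in the 231:TKO replicates and 0 in those of parental 231. They also differed between the 231:TKO replicates. MTHFD2, at 74186172 to 74217565 on chromosome 2, lies in a window at −0.54 in replicate 1 and −0.004 in replicate 2, and its own differences were −0.11 and −0.07. MTHFD1L, at 150865679 to 151101887 on chromosome 6, lies in a window at 0.10 and −0.51, and its own differences were 0.11 and −0.29.

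The comparison of 231:TKO+siNT with parental 231+siNT gave another picture. PSAT1, SHMT1, MTHFD2 and MTHFD1L were higher in 231:TKO+siNT and PHGDH was lower, against 16.1% of the 23310 genes tested in the one direction and 20.7% in the other. Among genes above 1 CPM these shares were 22.4% and 28.3%. The median over the members was 0.07, beside −0.03 for all genes. MTHFD2 rose by 0.82 (SE 0.09, adjusted p = 2.77e-05), MTHFD1L by 0.71 (SE 0.09, adjusted p = 0.000154), SHMT1 by 0.53 (SE 0.08, adjusted p = 0.000498) and PSAT1 by 0.33 (SE 0.11, adjusted p = 0.0341). SHMT1 lay at 45.3, 44.3 and 44.95 CPM in parental 231+siNT, all below the values of 231:TKO+siNT given above. PHGDH was 2.85-fold lower in 231:TKO+siNT, with a log2 fold change of −1.51 (SE 0.20, adjusted p = 0.000133), and its groups were far apart. The other members had values between −0.19 and 0.12. Without parental 231+siNT replicate 1, the library of the pair in this comparison, PSPH (0.16, adjusted p = 0.0449) and SHMT2 (−0.16, adjusted p = 0.0487) also passed. PSAT1 lost its call without 231:TKO+siNT replicate 2 (adjusted p = 0.162) or 3 (0.0907) or parental 231+siNT replicate 2 (0.0585). Here the population cannot be told apart from the later annotation and the other series of sample names, and CDH1 and PTPRC again moved, by −3.10 and −6.07, in a part that was not tested.

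In these libraries the window of MTHFD1L was shifted and that of MTHFD2 was not. The median over 71 other genes near MTHFD1L was 0.61, 0.51 and 0.58 in the 3 replicates of 231:TKO+siNT, beside 0.65, 0.80 and 0.66 for MTHFD1L, and with the window correction MTHFD1L had 0.14 (adjusted p = 0.288). The window of MTHFD2 had −0.13, −0.18 and −0.11, beside 0.76, 0.87 and 0.80 for the gene. The window of SHMT1 had −0.07, −0.03 and −0.02, beside 0.54, 0.51 and 0.52, and that of PHGDH 0.11, 0.07 and 0.12, beside −1.77, −0.95 and −1.46. With the correction MTHFD2, SHMT1, PSAT1 and PHGDH stayed past the threshold, and PSPH (0.38, adjusted p = 0.00627) and MTHFD1 (0.29, adjusted p = 0.0491) passed it as well.

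**Figure D3:**
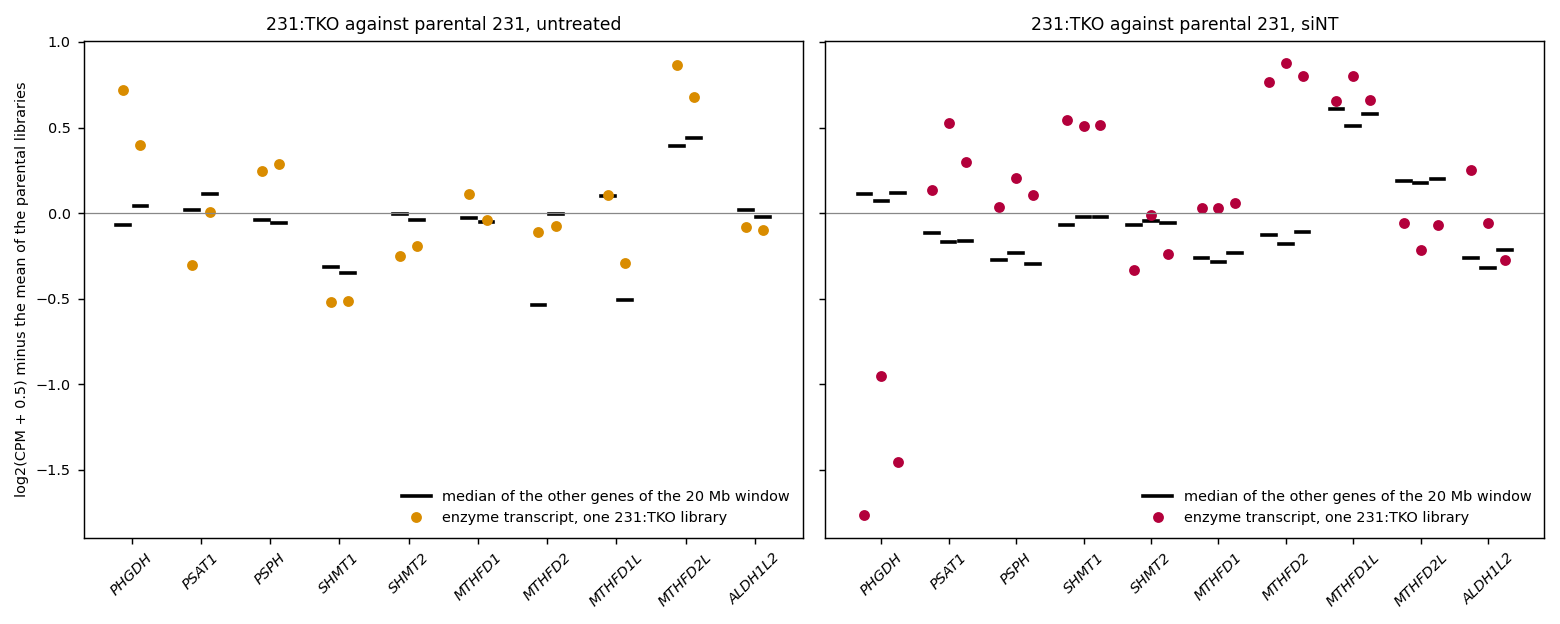
Difference of each transcript from the mean of the parental libraries on the log2(CPM + 0.5) scale (vertical axis), 1 point per 231:TKO library, with the median of the other genes above 1 CPM in the same window of 20 Mb as a black bar, in untreated (left) and siNT-treated cells (right). MTHFD1L and its window lie together at 0.51 to 0.80 in the siNT libraries, and MTHFD2 at 0.76 to 0.87 lies above its window at −0.18 to −0.11.

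The TXNIP contrast of 5 members differed between untreated and siNT-treated cells. In 1 fit of the 4 untreated and 6 siNT libraries, chosen after the data had been seen, the untreated contrast minus the siNT contrast was past the threshold upward for PHGDH and MTHFD2L and downward for SHMT1, MTHFD2 and MTHFD1L, against 7.91% and 6.20% of 25112 genes. The counts over all genes, 1987 upward and 1557 downward, fell to 987 and 795 without parental 231 replicate 1 and to 958 and 800 without replicate 2, and without parental 231+siNT replicate 1 there were 3238 upward. It was 2.61 for PHGDH (SE 0.49, adjusted p = 0.00249), 0.94 for MTHFD2L (SE 0.22, adjusted p = 0.00913), −1.05 for SHMT1 (SE 0.13, adjusted p = 9.08e-05), −0.91 for MTHFD2 (SE 0.13, adjusted p = 0.000366) and −0.79 for MTHFD1L (SE 0.17, adjusted p = 0.00554). Without parental 231 replicate 1 or 2, MTHFD2L missed the threshold (adjusted p = 0.0579 and 0.0521). All 5 had opposite signs in the 2 contrasts, but only SHMT1 had passed the test in both. MTHFD2L had passed it in untreated cells, and its siNT value of −0.13 had not. The untreated values of PHGDH, MTHFD2 and MTHFD1L had not passed. Those of MTHFD2 (−0.09) and MTHFD1L (−0.08) were small and turned sign with the window correction. The window of MTHFD1L moved the same way as the gene, from 0.10 and −0.51 in untreated 231:TKO to 0.61, 0.51 and 0.58 with siNT. Those of SHMT1 and MTHFD2L also moved the way of their genes, by less. The window of SHMT1 went from −0.31 and −0.35 to −0.07, −0.03 and −0.02, and that of MTHFD2L from 0.39 and 0.44 to 0.19, 0.17 and 0.20. The window of PHGDH lay between −0.07 and 0.12 throughout. That of MTHFD2 had −0.54 and −0.004 untreated and −0.18 to −0.11 with siNT. This difference was not fitted with a window correction. Treatment with siNT cannot be told apart from the read layout, which was single for all untreated cells and paired after siRNA. Nor can it be told apart from the annotation and the series of sample names, which the populations shared when untreated and did not share with siNT.

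Levels of partner enzymes were also set against each other within each library. Per kilobase, SHMT2 stood at 3.43 and 3.66 times SHMT1 in parental 231, at 4.27 and 4.44 in 231:TKO and at 3.80, 4.88 and 4.14 in 231:TKO+siNT. In parental 231+siNT it stood at 7.04, 6.87 and 7.12 times SHMT1, the highest of these groups. With siMyc the ratio was 4.13, 3.64 and 3.71 in 231:TKO and 6.50, 6.15 and 7.13 in parental 231, and the siMyc values overlapped the siNT values in both populations. MTHFD1L stood at 0.842, 0.932 and 0.827 times MTHFD1 in 231:TKO+siNT and at 0.707, 0.681 and 0.688 in 231:TKO+siMyc, without overlap. In parental 231 the siMyc ratios of 0.513, 0.484 and 0.592 overlapped the siNT ratios of 0.591, 0.541 and 0.503, and the highest of each were from the pair that deviated together. MTHFD2 stood at 6.37 and 6.36 times MTHFD2L in parental 231 and at 3.17 and 3.71 times in 231:TKO. With siNT the order was the other way, at 2.92, 3.57 and 3.74 times in parental 231 and 6.01, 7.27 and 6.24 times in 231:TKO. These ratios are given without a test, and their size, though not their order between groups, depends on the exon lengths used.

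**Figure D4:**
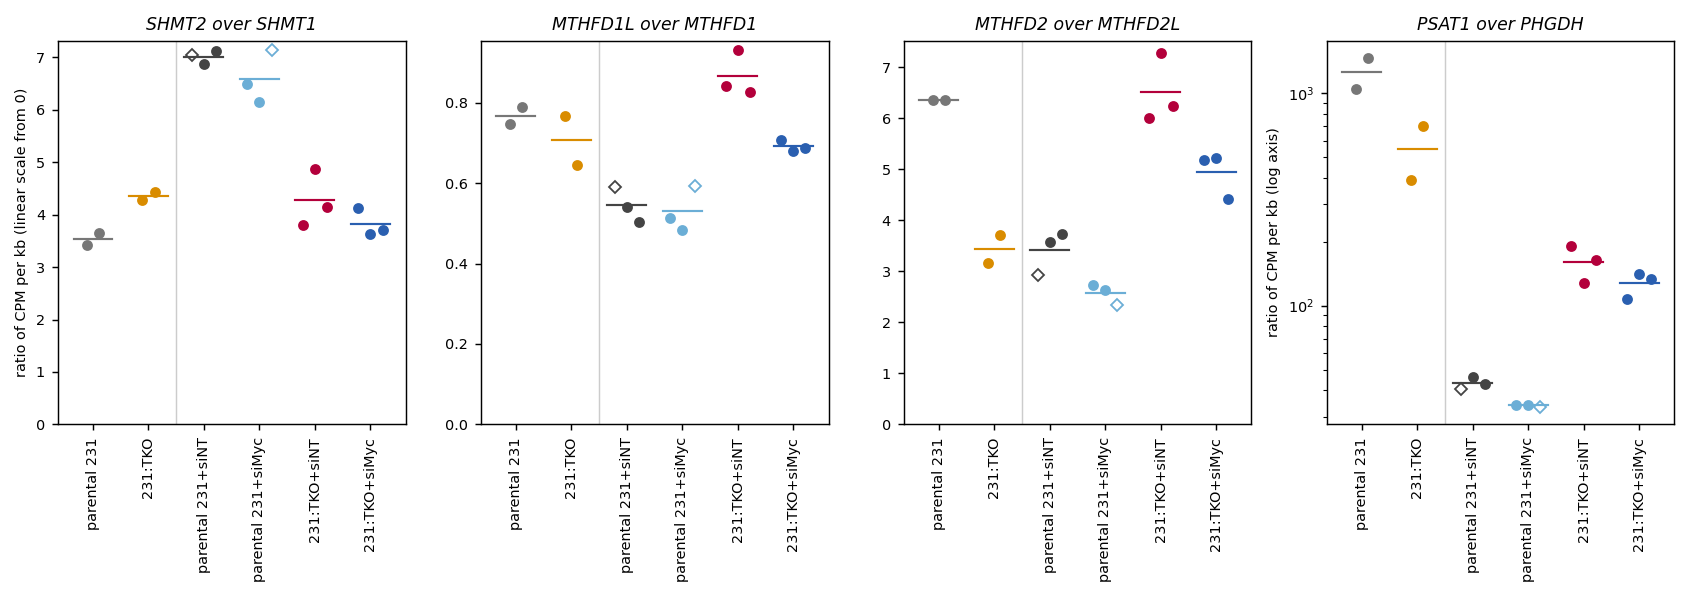
Ratios of CPM per kilobase between pairs of transcripts (vertical axes, linear from 0 for the first 3 panels and logarithmic for PSAT1 over PHGDH) in the 6 groups, with 1 point per library, a line at the mean and white diamonds for the pair of parental libraries that deviated together. SHMT2 over SHMT1 is at 6.15 to 7.13 in the siRNA-treated parental libraries and below 5 elsewhere.

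Among the 46 other listed genes, 2 of 42 tested were higher in untreated 231:TKO and 1 was lower, against 5.43% and 4.18% of all genes. MTR, the methionine synthase, was higher by 0.59 (SE 0.08, adjusted p = 0.0172) and ATF5 by 0.47 (SE 0.07, adjusted p = 0.0235). In 231:TKO+siNT against parental 231+siNT, 8 of 44 were higher and 11 lower. The shares were 16.1% and 20.7% of all genes, and 22.4% and 28.3% of genes above 1 CPM. ALDH1L1 was higher by 1.02 (SE 0.15), the serine transporter SLC1A4 by 0.80 (SE 0.13) and the mitochondrial carrier SFXN3 by 0.73 (SE 0.08). FOLR1 was lower, at −2.03 (SE 0.14), as were CHAC1, an ATF4 target that degrades glutathione, at −1.86 (SE 0.25) and SPTLC2, a subunit of the enzyme that joins serine to palmitate, at −1.34 (SE 0.11). Of the ATF4-controlled list, 3 of 8 were lower and none higher.

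The levels of some members ran closely together over the 12 siRNA libraries, which fall into 2 populations and 2 treatments. Pearson's r of log2(CPM + 0.5) was 0.97 between MTHFD2 and MTHFD1L, 0.89 between PSAT1 and MTHFD1L and −0.88 between PHGDH and SHMT1. Among 13474 other genes above 1 CPM, MTHFD1L was most like EIF4A1 (0.988), HSPA9 (0.987) and RFFL (0.985), and MTHFD2 most like GCH1 (0.985), C4orf46 and NUP43 (0.981 each). MTHFD1 was most like LETM1 and KIF20A (0.982 each) and TSR1 (0.973), and PSAT1 most like MFSD2A (0.972), NPTN (0.970) and ZNF207 (0.969). PHGDH was most like PEMT (0.984), PRMT7 (0.983) and HSPA5 (0.980), and SHMT1 most like LUCAT1, SPIN4 (0.988 each) and RBM15 (0.987). SHMT2 was like MSTO1 (0.961) and DUS3L (0.932), PSPH most like BSG-AS1 (0.932), ALG2 (0.914) and HCCS (0.894), and MTHFD2L most like NT5C3A (0.965), CNIH1 (0.963) and PSMA1 (0.947). These are descriptions of libraries that share treatment, population and counting.

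Of 14 pseudogenes named after the members, PSPHP1 alone held many reads, at 54 to 1141 counts. It was lower in 231:TKO+siNT than in parental 231+siNT, at −0.83 (SE 0.14, adjusted p = 0.000690), where PSPH had 0.12 (SE 0.09, adjusted p = 0.352). The other 13 held at most 14 counts in any library. Genes that overlap a member on the same strand held at most 9 counts, and reads were counted by strand, so that the antisense neighbours of SHMT1, MTHFD1 and ALDH1L2 are kept apart from them.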

How the data were processed

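RNA of 16 MDA-MB-231 libraries in 6 groups was analysed. Per the labels and headers, the authors used STAR to align stranded mRNA reads (GRCh38) and featureCounts 1.6.3 for gene counts by strand on Ensembl release 102, or 104 for siRNA-treated parental 231, and they deposited raw counts without normalization. Symbols were matched for 58705 of 60719 identifiers, and 1 planned marker, PECAM1, had no match.

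Each comparison was fitted on its own libraries in edgeR 4.0.16 (R 4.3.3), with genes above 5 summed counts, TMM scaling, the robust quasi-likelihood test, Benjamini-Hochberg adjustment over all genes tested and an adjusted p-value of at most 0.05. DESeq2 1.42.0 was an alternative. CPM were TMM-scaled within the 4 untreated or the 12 siRNA libraries. Window medians took at least 15 genes above 1 CPM and a pseudocount of 0.5 CPM. The steps were tested on simulated data.

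The members and lists were chosen with earlier results of these data known. Named were all members, TXNIP, MYC and ATF4, in each comparison the 3 listed pathway genes furthest up and down past the threshold at 1 CPM or more, and the 3 genes most like each member. Some genes that this rule names are not reported here. TYMS and ATIC were named after their values were seen.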

Additional observations from a re-analysis of the deposited data

Results flagged for a closer look

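The difference between the TXNIP contrasts of untreated and siNT-treated cells was past the threshold for 5 members by an interaction term in edgeR, with adjusted p-values from 9.08e-05 to 0.00913. On the log2 scale it was 2.61 for PHGDH, −1.05 for SHMT1, −0.91 for MTHFD2, −0.79 for MTHFD1L and 0.94 for MTHFD2L. SHMT1 was lower in both untreated 231:TKO replicates and higher in all 3 siNT-treated ones, each against the parental mean. The windows of MTHFD1L, SHMT1 and MTHFD2L moved the same way as their genes, and the interaction was fitted without a window correction. The low counts of PHGDH in untreated cells, between 6 and 27 per library, limit the precision of its value.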

How the results depend on the processing

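Of 751 log2 fold changes recomputed for the members, 656 kept their sign and side of the threshold, 30 lost a call, 39 gained one and 26 turned sign, all in values that missed the threshold both ways. In untreated 231:TKO the replicate block, the window correction and an adjusted p of at most 0.01 each left 0 members higher and 0 lower, with adjusted p of 0.0594 for MTHFD2L and 0.0502 for SHMT1 under the block. Leaving out 1 library gave 0 to 3 members higher and 0 to 3 lower. For 231:TKO+siMyc, 4 members were lower in 1 fit of 12 libraries and 6 to 7 with 1 library left out. The block added PHGDH (−0.48, adjusted p = 0.0131). PHGDH also passed without a filter (−0.49, adjusted p = 0.0140) and without 231:TKO+siNT replicate 1 (−0.69, adjusted p = 0.0127). For parental 231+siMyc, 4 were lower with DESeq2 or 1 fit of 12 libraries, 3 without a filter or with more than 5 counts in every library, 8 with the pair left out or given a factor, 0 with DESeq2 size factors, the replicate block or an adjusted p of at most 0.01, and 0 to 2 with 1 library left out. For 231:TKO+siNT against parental 231+siNT, 3 to 5 were higher and 1 to 2 lower with 1 library left out, and for the difference between the TXNIP contrasts 1 to 2 were higher and 3 to 4 lower. Replicate numbers are shared between groups, but same-numbered libraries did not all deviate together, with correlations of −0.15, 0.13 and 0.27 in siRNA-treated 231:TKO, −0.82, 0.64 and −0.75 in siRNA-treated parental 231 and 0.02 in untreated cells. Beyond the calls above, the replicate block changed none of a member. Over all genes, the untreated comparison called 523 higher and 381 lower under the block, 116 and 113 at an adjusted p of at most 0.01, and 0 to 3453 and 0 to 3549 with 1 library left out. The comparison of 231:TKO+siMyc called 1363 and 1130 in 1 fit of 12 libraries. For parental 231+siMyc the genes higher and lower were 479 and 631 with DESeq2, 724 and 942 in 1 fit, 121 and 209 without a filter, 3250 and 3113 with the pair factor, 2231 and 2442 with the pair left out, and 0 and 0 under the block or at the stricter threshold, with 35 higher for DESeq2 size factors and 142 lower with more than 5 counts in every library. With 1 library left out, the comparison of parental 231+siMyc called 0 to 59 genes higher and 0 to 101 lower. At the stricter threshold 2460 were higher in 231:TKO+siNT, and the difference between the TXNIP contrasts held 1028 and 774. The cause of these changes was not tested.

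Signs turned in small values. With the window correction MTHFD2 had 0.19 and MTHFD1L 0.10 in untreated 231:TKO, and ALDH1L2 0.098 in 231:TKO+siNT. ALDH1L2 had 0.15 under the block in parental 231+siMyc, and the difference in response of PSAT1 was 0.0557 with the pair left out. With 1 library left out the ranges were −0.0575 to 0.11 for MTHFD1, −0.31 to 0.10 for MTHFD1L and −0.34 to 0.0465 for ALDH1L2 in untreated 231:TKO, −0.45 to 1.02 for ALDH1L2 in parental 231+siMyc, and −0.0584 to 0.15 for MTHFD1, −0.21 to 0.0488 for MTHFD2L and −0.66 to 0.90 for ALDH1L2 in 231:TKO+siNT. For the difference in response to siMyc they were −0.30 to 0.20 for PHGDH, −0.12 to 0.0735 for PSAT1, −0.0357 to 0.14 for SHMT2, −0.0717 to 0.17 for MTHFD1, −0.29 to 0.0079 for MTHFD2L and −0.58 to 1.03 for ALDH1L2. PHGDH and ALDH1L2 are limited by depth.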

Other observations

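The difference between the TXNIP contrasts of untreated and siNT-treated cells was also taken over the 8 lists. It was past the threshold upward for 7 of 44 genes tested and downward for 4, against 7.91% and 6.20% of all genes. FOLR1 had 1.603 (SE 0.42), SPTLC2 1.11 (SE 0.18) and MTHFS 1.03 (SE 0.28), while SLC1A4 had −1.46 (SE 0.23) and SFXN3 −0.45 (SE 0.13). The MYC transcript had −0.0078 (SE 0.16) and ATF4 0.40 (SE 0.16, adjusted p = 0.121) in the same fit. TXNIP itself was 42.8-fold lower in 231:TKO+siNT and 9.81-fold lower in untreated 231:TKO, where its replicates lay at 12.6 and 46.6 CPM and the adjusted p was 0.0587. In siMyc-treated cells TXNIP was higher than with siNT, by 0.40 in 231:TKO and 0.57 in parental 231 on the log2 scale.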
